A study of Mus musculus with 2 samples.

Results

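The miR-29 genes of the mouse, Mir29a, Mir29b-1, Mir29b-2 and Mir29c, were examined in the embryonic face. They were chosen by name: gene identifiers of the count files were matched to GENCODE symbols, and all 4 had a row among 1973 miRNA gene rows. Small RNA had been sequenced from the facial prominences, the embryonic swellings that become the face and jaws, of embryos of the inbred strain B6NCrl at embryonic day 14.5, with 2 biological replicates of 1 group. No treatment or modified allele is named for either sample. Each replicate is described as the face of a single pup, although its sex is given as pooled male and female, and the replicates were collected on different days. There is therefore no contrast between conditions, and a difference between the libraries cannot be told apart from the day of collection.

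MicroRNAs are short RNAs cut from hairpin precursors, and they pair with messenger RNAs mainly through a seed near their 5′ end. The miR-29 family is known for lowering collagens, elastin and fibrillin, the fibres of the extracellular matrix, and for lowering the DNA methyltransferases Dnmt3a and Dnmt3b. It has been studied in fibrosis, bone and cartilage, where matrix output changes as cells differentiate. Facial mesenchyme at this stage is building cartilage, bone and connective tissue.

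The mature strands are shown first because the counts turn on how they differ. RefSeq sequences on GRCm38, the assembly also called mm10, matched 4 of the 4 genes. In the 3p strands below, which carry the known targeting activity of the family, capitals mark the seed at bases 2 to 8.
miR-29a-3p: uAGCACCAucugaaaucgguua
miR-29b-3p: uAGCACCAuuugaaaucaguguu
miR-29c-3p: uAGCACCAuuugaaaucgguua

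All 3 strands have the seed AGCACCA, and no other mature miRNA of the RefSeq table has it. Counted from the 5′ end, miR-29a-3p and miR-29c-3p differ by a single substitution, C10U. From miR-29b-3p to miR-29c-3p there are 3 substitutions, A18G, G21U and U22A, so those strands are the same over their first 17 bases. MiR-29b-3p is encoded identically by Mir29b-1 and Mir29b-2.

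The 5p strands come from the other arm of each hairpin and are shown because, unlike the 3p strands, they differ between the pair of Mir29b genes. Capitals again mark bases 2 to 8.
miR-29a-5p: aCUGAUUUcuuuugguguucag
miR-29b-1-5p: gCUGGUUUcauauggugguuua
miR-29b-2-5p: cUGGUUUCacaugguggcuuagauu
miR-29c-5p: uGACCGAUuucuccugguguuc

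These strands have 4 different seeds and occur whole in no other hairpin of the 1005 in the table. The hairpins of Mir29b-1 and Mir29b-2 are printed with their longest shared run, 25 bases that include the whole 3p strand, in capitals.
Mir29b-1: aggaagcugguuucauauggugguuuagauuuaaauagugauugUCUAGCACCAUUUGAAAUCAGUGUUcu
Mir29b-2: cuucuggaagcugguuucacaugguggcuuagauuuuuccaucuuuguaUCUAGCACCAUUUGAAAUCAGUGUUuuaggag

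The genes form a pair of loci. On mm10, Mir29a (ENSMUSG00000065610.1) lies at chr6:31062660-31062747 and Mir29b-1 (ENSMUSG00000065604.1) at chr6:31063023-31063093, both on the minus strand with 275 bases between them. Mir29a overlaps no gene of another class in GENCODE M21, while Mir29b-1 lies in an exon of the long noncoding gene Gm27019 on the same strand. Mir29b-2 (ENSMUSG00000065412.2) lies at chr1:195037040-195037120 and Mir29c (ENSMUSG00000065548.1) at chr1:195037547-195037634, both on the plus strand with 426 bases between them. Both lie in exons of at least 1 annotated transcript of A330023F24Rik, a noncoding gene on the same strand, and of Cd46, a complement regulator on the opposite strand. No read was counted on the opposite strand of any of the 4 genes in either library.

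Mir29a had the highest count of the family in both libraries, Mir29c came next, and the Mir29b genes were close to the limit of detection. Mir29a had 533 counts in replicate 1 and 1054 counts in replicate 2, which is 196 and 160 CPM. CPM is the count scaled to the gene-strand miRNA total of the library, and those totals were 2719153 in replicate 1 and 6602050 in replicate 2. The mean of Mir29a was 178 ± 25.7 CPM (SD, n = 2). Its 95% Poisson intervals, which cover counting error only, were 180 to 213 CPM in replicate 1 and 150 to 170 CPM in replicate 2, so the counting intervals of the libraries did not overlap.

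Mir29c, whose 3p strand differs from that of Mir29a by the single base above, had 200 counts in replicate 1 and 350 counts in replicate 2. These are 73.6 CPM (interval 63.7 to 84.5) and 53.0 CPM (interval 47.6 to 58.9), with a mean of 63.3 ± 14.5 CPM (SD, n = 2). In both libraries Mir29c lay below Mir29a, with no overlap of the intervals.

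Mir29b-1, the neighbour of Mir29a, had 3 counts in replicate 1 and 17 counts in replicate 2. Its level was 1.10 CPM (interval 0.228 to 3.22) in replicate 1 and 2.57 CPM (interval 1.5 to 4.12) in replicate 2, a mean of 1.84 ± 1.04 CPM. The floor was set at 3 counts, about what a 1-sided 95% limit allows for a count of 0, whereas the intervals are 2-sided. It equals 1.10 CPM in replicate 1 and 0.454 CPM in replicate 2. Mir29b-1 thus stood at the floor in replicate 1 and above it in replicate 2.

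Mir29b-2, the neighbour of Mir29c, had 1 count in replicate 1 and 3 counts in replicate 2, at or under the floor in both. Its values were 0.368 CPM (interval 0.00931 to 2.05) and 0.454 CPM (interval 0.0937 to 1.33). The intervals of Mir29b-1 and Mir29b-2 overlapped in replicate 1 and were apart in replicate 2, so their order is not settled by both libraries. All 4 genes had at least 1 count in each library.

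**Figure D1:**
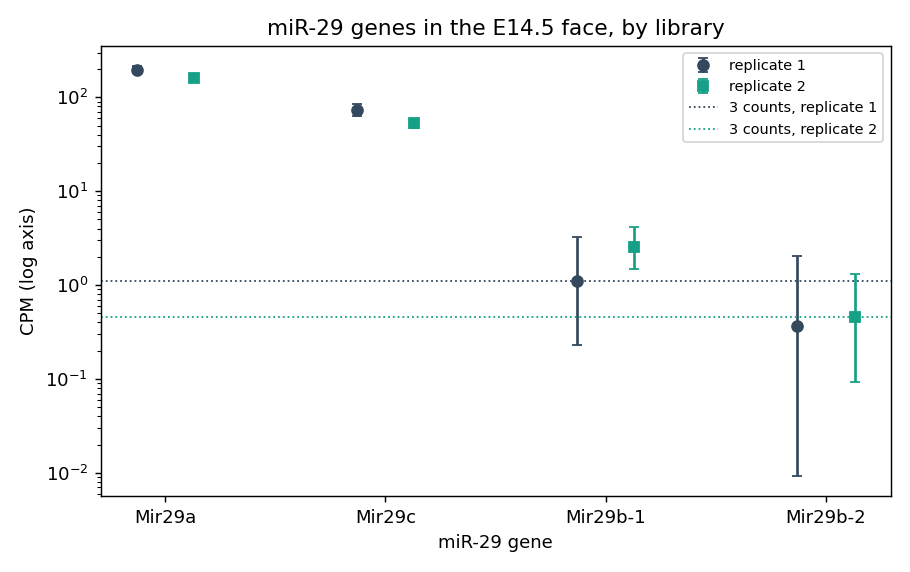
Levels of the 4 miR-29 genes in CPM on a log axis, with circles for replicate 1, squares for replicate 2 and bars for 95% Poisson counting intervals; dotted lines mark 3 counts in each library. Mir29a (196 and 160 CPM) and Mir29c (73.6 and 53.0 CPM) lie far above these lines, and the Mir29b genes lie near or on them.

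The 4 genes together had 737 counts in replicate 1 and 1424 counts in replicate 2, or 271 and 216 CPM. Mir29a made up 72.3% of the family in replicate 1 and 74.0% in replicate 2, with 95% Wilson intervals of 69.0 to 75.4 and of 71.7 to 76.2. Mir29c made up 27.1% (24.1 to 30.5) and 24.6% (22.4 to 26.9). The Mir29b genes together made up 0.543% in replicate 1 and 1.40% in replicate 2. By locus, the Mir29a and Mir29b-1 pair on chromosome 6 held 72.7% and 75.2% of the family counts, and the Mir29b-2 and Mir29c pair on chromosome 1 held 27.3% and 24.8%.

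The split between Mir29a and Mir29c did not differ between the libraries beyond counting error. There were 2.67 reads of Mir29a for each read of Mir29c in replicate 1 (exact 95% interval 2.26 to 3.15) and 3.01 in replicate 2 (2.67 to 3.41). Fisher's exact test of these 4 counts, two-sided, gave p = 0.252; the intervals overlap and do not show that the ratios are equal. Genes of 1 locus were counted at very different levels. Mir29a had 178 reads for each read of Mir29b-1 in replicate 1 (exact interval 60.5 to 864) and 62.0 in replicate 2 (38.5 to 107).

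Identity of the miR-29b strands bears on the low counts, since in the layout of these tables the gene rows hold only reads with a single place in the genome. Of the 20-base windows within miR-29b-3p, 0 of 4 were found in a single hairpin. For miR-29a-3p and miR-29c-3p, 3 of 3 windows were found in no other hairpin. Outside the 3p strand the Mir29b hairpins do have windows of their own, 43 of 52 for Mir29b-1 and 56 of 62 for Mir29b-2, so the counts of 3 and 17 and of 1 and 3 can come from 5p strands or other parts of the hairpin, which a gene count does not resolve. Reads with several places numbered 1672840 (29.8%) in replicate 1 and 3812416 (28.5%) in replicate 2, and they carry no gene name. For scale, all miR-29 counts equal 0.0441% and 0.0374% of that number. How much miR-29b lies among those reads was not tested, so the counts give no level of miR-29b-3p. The family sum is likewise the sum of what was uniquely placed.

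Mir29a and Mir29c stood above the median of the detected miRNA genes, and the Mir29b genes stood below it. Of the 1973 rows 717 had a count in at least 1 library, and their median was 2.67 CPM. By mean CPM, Mir29a ranked 179, Mir29c 220, Mir29b-1 389 and Mir29b-2 539. The rank of Mir29a was 171 in replicate 1 and 181 in replicate 2, and that of Mir29c was 218 and 220. The most abundant miRNA gene of the tissue was counted 439 times as high as Mir29a. A read covers a whole mature strand, so levels were not scaled by length, but levels of different miRNAs also carry the sequence bias of adapter ligation. In a whole tissue, fewer cells with a miRNA and less of it per cell cannot be told apart.

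**Figure D2:**
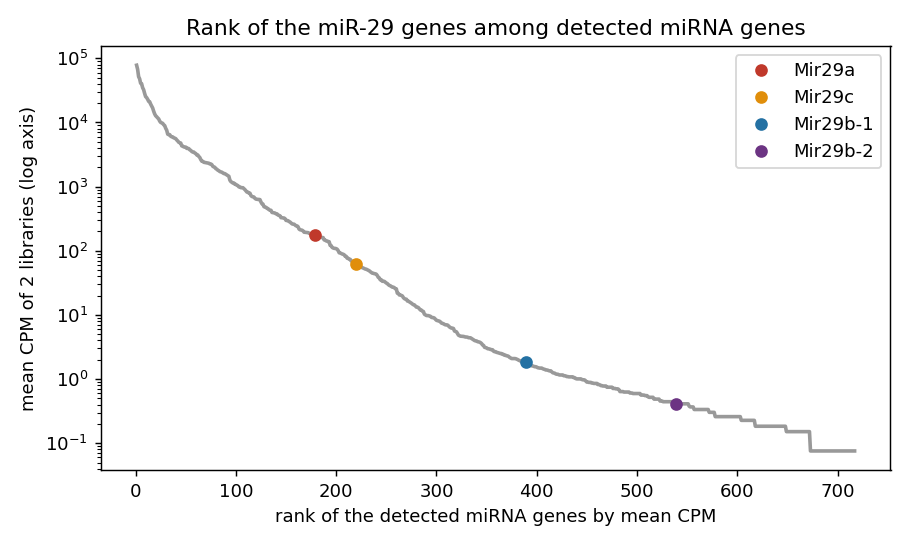
Mean CPM of the 717 detected miRNA genes on a log axis against their rank, with the 4 miR-29 genes as coloured points. Mir29a (rank 179) and Mir29c (rank 220) lie above the median of 2.67 CPM, and Mir29b-1 (389) and Mir29b-2 (539) below it.

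The genes nearest in level to each member were found by the distance of log2(CPM + 1) over the 2 libraries. Nearest to Mir29a were Mir187 with 192 and 159 CPM, Mir328 with 191 and 166 CPM and Mir128-1 with 211 and 172 CPM. Nearest to Mir29c were Mir302a with 73.9 and 54.5 CPM, Mir20b and Mir30c-1. Nearest to Mir29b-1 were Mir19b-2, Mir5130 and Mir7224. The 1 and 3 counts of Mir29b-2 are tied with those of other genes, so no nearest gene is named for it. With 2 libraries, such likeness describes the level and little more.

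Similar families were set beside miR-29 to show where it stands. The miR-29 sum of 243 ± 39.1 CPM (SD, n = 2) lay below those of the miR-26 family at 21113 ± 461 CPM, the miR-30 family at 23159 ± 4059 CPM and the miR-148 and miR-152 family at 2391 ± 69.3 CPM. The lowest of these family sums in either library, 2342 CPM for miR-148 and miR-152, was above the highest for miR-29, 271 CPM. With 2 libraries the smallest two-sided exact p of such a paired comparison is 0.5, so the order could not pass a test at 0.05.

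In the miR-29, miR-26 and miR-30 families, genes whose mature strand is whole in another hairpin were counted lower than the compared genes that share none. In the miR-26 family, Mir26a-1 (11.9 ± 1.39 CPM) and Mir26a-2 (56.0 ± 4.49 CPM) share a strand, and Mir26b (21046 ± 456 CPM) does not. In the miR-30 family, Mir30c-1 (59.4 ± 11.2 CPM) and Mir30c-2 (27.1 ± 1.71 CPM) share a strand, while Mir30e (14976 ± 3279 CPM) and Mir30a (4268 ± 550 CPM) do not. Mir30d and Mir30b, not compared by sequence, stood at 3669 ± 220 CPM and 160 ± 1.83 CPM. In the miR-29 family, Mir29c shares no strand and stood at 63.3 ± 14.5 CPM, near Mir26a-2 and Mir30c-1. Mir148a, Mir148b and Mir152 share none and ranged from 298 to 1769 CPM. Of 916 gene rows matched to the RefSeq table, 85 share a whole strand with another hairpin. Their median of 4.41 CPM was above the 0.487 CPM of the other 831, of which 558 were detected. Among detected genes alone the medians were 31.4 and 2.87 CPM. Over all matched rows the medians thus ran opposite to the pattern within these families, and they pool unrelated genes. Whether that pattern holds in other families was not tested. The part of multiply placed reads in these levels was not tested.

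**Figure D3:**
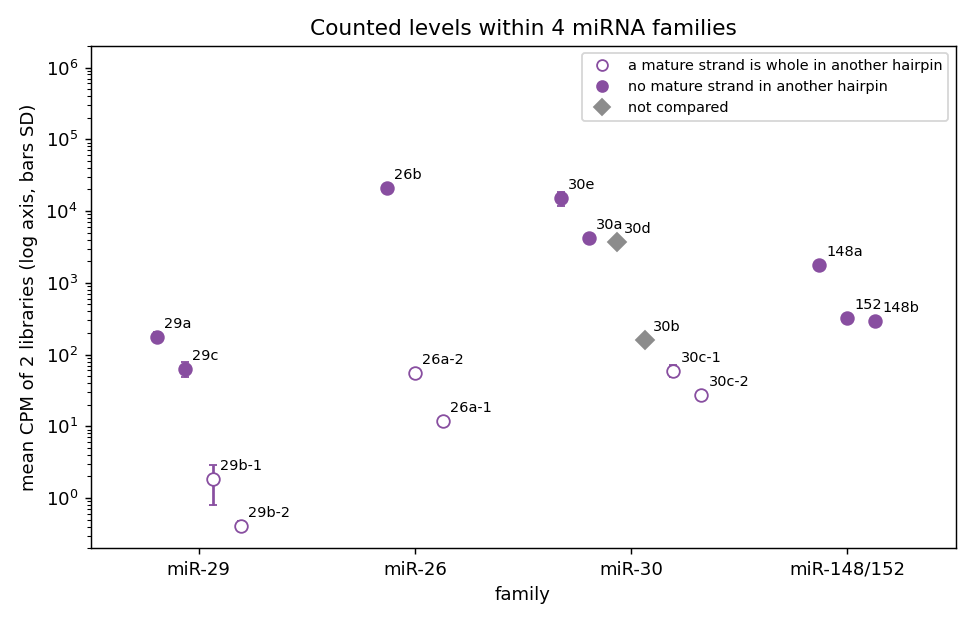
Mean CPM of each gene in 4 families on a log axis, with SD bars (n = 2); open circles mark genes with a mature strand that is whole in another hairpin, filled circles genes with none, and grey diamonds genes not compared. Mir29b-1 (1.84 CPM) and Mir29b-2 (0.411 CPM) are the lowest of all genes drawn, below Mir26a-1 (11.9 CPM).

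Between the libraries, Mir29c was higher in replicate 1 past the test, and Mir29a did not pass it. Counts were compared by an exact two-sided binomial test given their sum and TMM effective library sizes, with Benjamini-Hochberg adjustment over 372 genes with a mean of at least 10 counts. This compares 2 libraries and no conditions, and it sets their difference against counting error only, so a call does not show a difference beyond the usual spread between samples. Log2 ratios are replicate 1 over replicate 2 with a prior of 0.5 counts. Mir29b-2 fell short of the count minimum, and Mir29b-1 met it exactly with a mean of 10 counts, so 3 of the 4 members were tested.

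Mir29c had a log2 ratio of 0.35, with an SE from counting of 0.13 and an exact 95% interval of 0.089 to 0.60, at an adjusted p of 0.0159 by the exact binomial test with Benjamini-Hochberg adjustment. As a ratio this is 1.27-fold (1.06 to 1.52). With no filter on low counts the call was lost, at a log2 ratio of 0.30 and an adjusted p of 0.083 by the same exact test. The ratio of Mir29a was 0.17 on the log2 scale, with an SE from counting of 0.077 and an interval of 0.018 to 0.32, at an adjusted p of 0.0532 by the same exact test. Mir29b-1, at 3 and 17 counts, had a log2 ratio of -1.17 with an interval of -3.76 to 0.44 and an adjusted p of 0.228 by the same exact test. That interval holds both a large deficit and a small excess in replicate 1. The member count was thus 1 higher and 0 lower of 3 tested.

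Such calls were common, and the members did not stand apart from them. Of all 372 tested genes 52.2% were called, 24.7% higher and 27.4% lower in replicate 1. The median log2 ratio of the 3 tested members was 0.17, beside 0.017 over all tested genes, and the median absolute log2 ratio over all tested genes was 0.25. By absolute log2 ratio, Mir29a stood at percentile 35.2, Mir29c at 65.9 and Mir29b-1 at 97.3 of the tested genes, the last on its 20 reads. The biological coefficient of variation between the libraries, from the common dispersion of edgeR, was 20.9%. Scaling matters at this size. With total counts in place of TMM, which moves all log2 ratios by 0.13, Mir29a was also called, at a log2 ratio of 0.30 and an adjusted p of 0.000372 by the exact binomial test, and the calls over all genes were 133 higher and 64 lower in replicate 1.

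**Figure D4:**
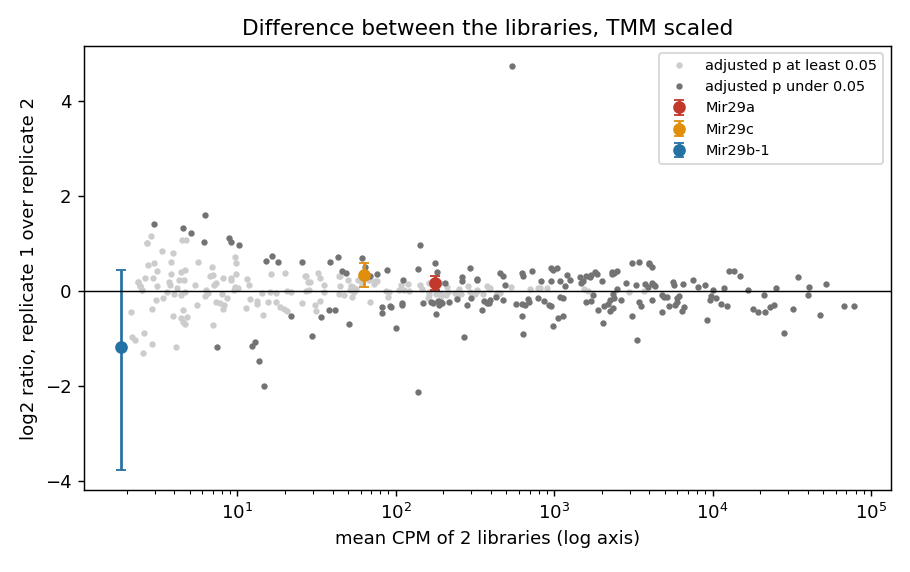
Log2 ratio of replicate 1 over replicate 2, TMM scaled, against mean CPM on a log axis for the 372 tested genes; dark points passed an adjusted p of 0.05, and coloured points with exact 95% intervals are the tested miR-29 genes. Mir29c (0.35) and Mir29a (0.17) lie within the cloud of the other genes, and the interval of Mir29b-1 runs from -3.76 to 0.44.

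Gene rows of other miRNAs with a known part in matrix or fibrosis had counts both above and below those of Mir29a and Mir29c. By mean CPM, the genes below Mir29c include Mir30c-1 and Mir30c-2, which share a strand as given above. Gene rows hold only singly placed reads, so a low count here gives no level of a strand with several places. All 15 genes of this list had a count in at least 1 library, as had 717 of all 1973 rows. Mir133a-1, Mir196a-1 and Mir133a-2 had 0 counts in replicate 1, and 8, 3 and 2 counts in replicate 2. Means of the list ran from 0.151 to 40899 CPM with a median of 81.7 CPM, between the levels of Mir29c and Mir29a. The highest were Mirlet7g (40899 ± 4232 CPM), a let-7 gene, Mir140 (40087 ± 1018 CPM), a miRNA of cartilage, and Mir214 (13601 ± 3584 CPM), a miRNA of mesenchyme. Of 12 tested members 5 were higher and 2 lower in replicate 1, at a median TMM-scaled log2 ratio of 0.071. Over all 372 tested genes 24.7% were higher and 27.4% lower. With total counts 8 of the 12 were higher and 0 lower, beside 133 higher and 64 lower of the 372. Of the face markers all 8 were detected at 961 to 47919 CPM, from Mir199b to the endothelial Mir126a. Of these markers 2 were higher and 6 lower in replicate 1, and 3 higher and 4 lower with total counts, beside the same shares over all genes. The higher ones by TMM were Mir214 and Mir199b, both of mesenchyme, with log2 ratios of 0.42 and 0.50, while Mir199a-1 (-0.21) and Mir199a-2 (0.11), of the same family as Mir199b, were not called. The lower ones by TMM ran from -0.88 for the epidermal Mir203 to -0.074 for Mir140, whose sign turned with total counts, as did that of Mir200c. Their part in the difference of Mir29c was not tested. Of the markers of other tissues 4 of 8 had 0 counts, namely the neural Mir124a-1, Mir124a-2, Mir124a-3 and Mir9-2. Even for singly placed reads a count of 0 does not show absence, and the floor of 3 counts stands at 1.10 CPM in replicate 1 and 0.454 CPM in replicate 2. These are genes of miRNAs with several copies in the genome, so the counts give no level of their mature strands. The other 4 markers of other tissues had 4.52 to 1137 CPM, with the erythroid Mir451a highest and the liver miRNA Mir122 at 12.5 and 5.60 CPM.

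No messenger RNA was measured, so the targets are described by sequence only. The 3′UTR of each gene was taken from the GENCODE M21 transcript with the longest one, and the given strand was searched for TGGTGCT, the complement of the miR-29 seed, and for TGGTGCTA, its longer form, which contains the former. Of 16 genes chosen for their known or supposed regulation by miR-29, 14 held TGGTGCT (87.5%) and 12 held TGGTGCTA (75.0%). Over all 20983 coding genes the shares were 13.1% and 2.86%, and over the 14578 genes with a 3′UTR in the length range of the list they were 16.8% and 3.63%. The list had 1.05 matches of TGGTGCT per kilobase and all genes 0.106. Because the list was picked for known targets, its high share is no independent result.

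The sites of 4 fibre genes are printed as examples, 30 bases that end with the match to the seed, with the match in capitals.
Col1a1, fibrillar collagen, chr11:94952516-94952545, plus strand: gggtggggtgggaaggaatttcTGGTGCTA
Col3a1, fibrillar collagen, chr1:45348960-45348989, plus strand: ttccaacttcaaaatgtctcaaTGGTGCTA
Eln, elastin, chr5:134703736-134703765, minus strand: tgactcgcgacctcatcaacgtTGGTGCTA
Fbn1, fibrillin, chr2:125301173-125301202, minus strand: cagtaggtttctgttgtctgttTGGTGCTA

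The seed complementary to these letters is common to all 3 miR-29 3p strands. Dnmt3a had the most matches of TGGTGCT, 5 in a 3′UTR of 6696 bases, followed by Col5a1 with 4 in 2498 bases and Eln with 3 in 1188 bases and Col5a3 with 3 in 785 bases. Col2a1, the collagen of cartilage, held 1 match in 438 bases. Col1a2 and Sparc held none in the transcripts used, which says only that these letters are not in those windows.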

How the data were processed

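Small RNA of 2 replicates of 1 group was analysed. The authors deposited raw read counts per miRNA gene, 1 library per file, with reads aligned to mm10 and counted over GENCODE M4 per the file headers and metadata text. Aligner and trimming: not given in the sources used here. The files have 3 unnamed columns under 4 summary rows, as STAR writes gene counts, where only singly placed reads are assigned to genes; this reading comes from the layout. Columns 3 and 4 summed to column 2 in all 1973 gene rows, and column 3 (gene strand) was used. Replicate 1 had 5617037 reads, 48.4% of them gene-strand miRNA counts, and replicate 2 had 13380839, 49.3% of them. Summary rows (unmapped 16.6% and 17.6%, several places 29.8% and 28.5%, outside miRNA genes 3.00% and 2.38%, ambiguous 0) stayed out of totals and tests.

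Symbols came from GENCODE M21, which named 1894 identifiers. CPM used total gene-strand counts; TMM came from edgeR 4.0.16, size factors as an alternative from DESeq2 1.42.0, and exact tests and intervals from scipy 1.17.1. With 1 group, the count tests of those packages had no contrast. The exact binomial test across all genes, with Benjamini-Hochberg adjustment at 0.05, was checked on simulated counts with counting error only. That check does not bear on spread between samples. The p-values of the binomial and Fisher tests cover counting error only and hold no term for spread between samples. Members and lists were chosen with earlier results of these data known. Named genes are the members, the 3 nearest in level to each (none for Mir29b-2, where genes are tied), and the 3 highest of the matrix, miR-26, miR-30 and miR-148 lists, other named genes, among them the markers, having been picked after their values were seen. Opposite-strand counts were read for the members, and entered for all genes only in the alternative with both strands together.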

Additional observations from a re-analysis of the deposited data

How the results depend on the processing

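No paired analysis was possible because the 2 replicates form 1 group. With all reads as the denominator, a choice that lowers every level by construction, the family stood at 119 CPM, Mir29a at 86.8 CPM, Mir29c at 30.9 CPM and Mir29b-2 at 0.201 CPM. With total counts the log2 ratio of Mir29a was 0.30 and passed the test. With no filter on low counts, when 717 genes were tested and TMM was taken over all of them, the ratio of Mir29c was 0.30 at an adjusted p of 0.083 by the exact binomial test and no longer passed; its adjusted p over the alternatives ran from 0.000779 to 0.083. Leaving out each replicate in turn gave values from 216 to 271 CPM for the family, 160 to 196 CPM for Mir29a, 53.0 to 73.6 CPM for Mir29c, 1.10 to 2.57 CPM for Mir29b-1 and 0.368 to 0.454 CPM for Mir29b-2. The number of genes called ran from 176 with no filter to 204 with both strands together, against 194. DESeq2 size factors, both strands together and a prior of 2 counts left the direction and the side of the threshold of Mir29a, Mir29b-1 and Mir29c as reported. Mir29b-1 had 20 reads in all, and the interval of its log2 ratio was -3.76 to 0.44; Mir29b-2 had 4 reads and was not tested.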
